A study of Rattus norvegicus with 30 samples.

Results

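The 10 genes described here are those of hepatic urea synthesis and of ammonia and glutamine handling: Nags, Cps1, Otc, Slc25a15, Ass1, Asl and Arg1 of the urea cycle, and Oat, Gls2 and Glul, which lead ornithine and ammonia to and from glutamate and glutamine. They were taken as every probeset annotated with 1 of these symbols, which gave 19 probesets among 31042 non-control probesets, and 10 genes among 14217 with a symbol of their own. Of the 19 probesets, 18 passed the filter on low signal. The exception was 1381440_at of Slc25a15, whose mean log2 signal of 5.33 lay below the filter level of 7.39, and every gene had at least 1 probeset tested.

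The samples were 30 cultures of primary hepatocytes, bought frozen, from male Sprague Dawley rats, grown on collagen beneath a Matrigel layer and dosed on day 3. They formed 6 groups of 5: vehicle water, 0.5 mM sodium valproate and 10 mM sodium valproate, each harvested 24 h or 48 h after dosing. Valproate is an antiepileptic drug that inhibits histone deacetylases and can raise blood ammonia in patients. All cells came from 1 supplier, the sources used here do not give the number of donor animals, and the p-values therefore measure the spread between culture wells. One well per array was measured as scaled signal intensity on a 1-colour Affymetrix-type array, and the number of arrays limits the precision.

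The urea cycle converts ammonia and bicarbonate to urea in periportal hepatocytes. Its first steps, from N-acetylglutamate-activated carbamoyl phosphate synthesis to citrulline, run in the mitochondrion, and the rest in the cytosol, with ornithine carried back by a mitochondrial exchanger. Ammonia that escapes is bound as glutamine by glutamine synthetase in the hepatocytes around the central vein, while liver glutaminase releases ammonia from glutamine on the periportal side.

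Hepatocyte identity was checked first. The summed signal of 7 hepatocyte markers (such as Alb, Ttr and Apoa1) ranged from 333980 to 585696 over the arrays, all 7 above the filter. The sum of 7 macrophage markers (5 above the filter) ran from 1609 to 4013, of 8 stellate or fibroblast markers (6 above) from 2773 to 5098, and of 6 endothelial markers (4 above) from 962 to 2141. That of 5 biliary markers (2 above) ran from 4967 to 12264, and of 5 lymphocyte markers (3 above) from 1058 to 2016. Sums over probesets depend on each probe's brightness and are no measure of cell shares. The beta-actin control probesets, whose 3' signal over 5' signal is a sign of RNA quality, gave a log2 value above 2 on 3 arrays. One was culture 3 of water harvested at 24 h (2.76), and the others were culture 3 (2.77) and culture 4 (2.23) of the 0.5 mM group harvested at 48 h. The other 27 arrays lay between 1.05 and 1.74. On the brightest probeset of a gene, some results that rest on the 3 arrays are given with and without them. Those of other probesets are given with all arrays only.

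At 10 mM, most of the urea cycle was lower than in water at both times. At 24 h, 6 of the 10 genes fell (Slc25a15, Otc, Arg1, Ass1, Nags and Cps1) and 1 rose (Gls2), while 25% of all 11604 tested genes fell (2896 genes) and 31.1% rose. None of the 6 had a 10 mM culture within the range of the water cultures, and the share of all genes without such overlap is not given here. At 48 h, 5 fell (Slc25a15, Otc, Ass1, Arg1 and Cps1) and 3 rose (Gls2, Oat and Asl), against 22.3% of all genes that fell and 27.6% that rose. The median log2 change of the 10 genes was -0.53 at 24 h, where that of all genes was 0.07, and -0.23 at 48 h, where that of all genes was 0.03. Calls are those of limma at an adjusted p under 0.05 with p-values adjusted over all 21729 tested probesets, and changes are differences of log2(signal + 16). In whole cultures, fewer cells of a type and less RNA per cell cannot be told apart. Of 7 hepatocyte markers, 5 were called lower at 10 mM after 24 h and 2 after 48 h, where 25% and 22.3% of all genes fell. Their log2 changes ran from -0.77 (Apob) to -0.13 (Hp) at 24 h and from -0.89 (Ahsg) to -0.04 (Alb) at 48 h. The summed signal of the 7 was 333980 to 407968 at 10 mM and 416723 to 522227 in water at 24 h. At 48 h it was 354289 to 411234 at 10 mM and 413835 to 470837 in water. Markers of other cell types also fell at 10 mM: 3 of 5 tested macrophage markers, 2 of 6 stellate or fibroblast markers (Col3a1 and Acta2) and 1 of 2 biliary markers (Epcam, -1.03 at 48 h) at each time, and 1 of 4 endothelial markers (Lyve1) at 24 h. None of the 3 tested lymphocyte markers was called by limma. The part of any of these in the result was not tested.

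**Figure D1:**
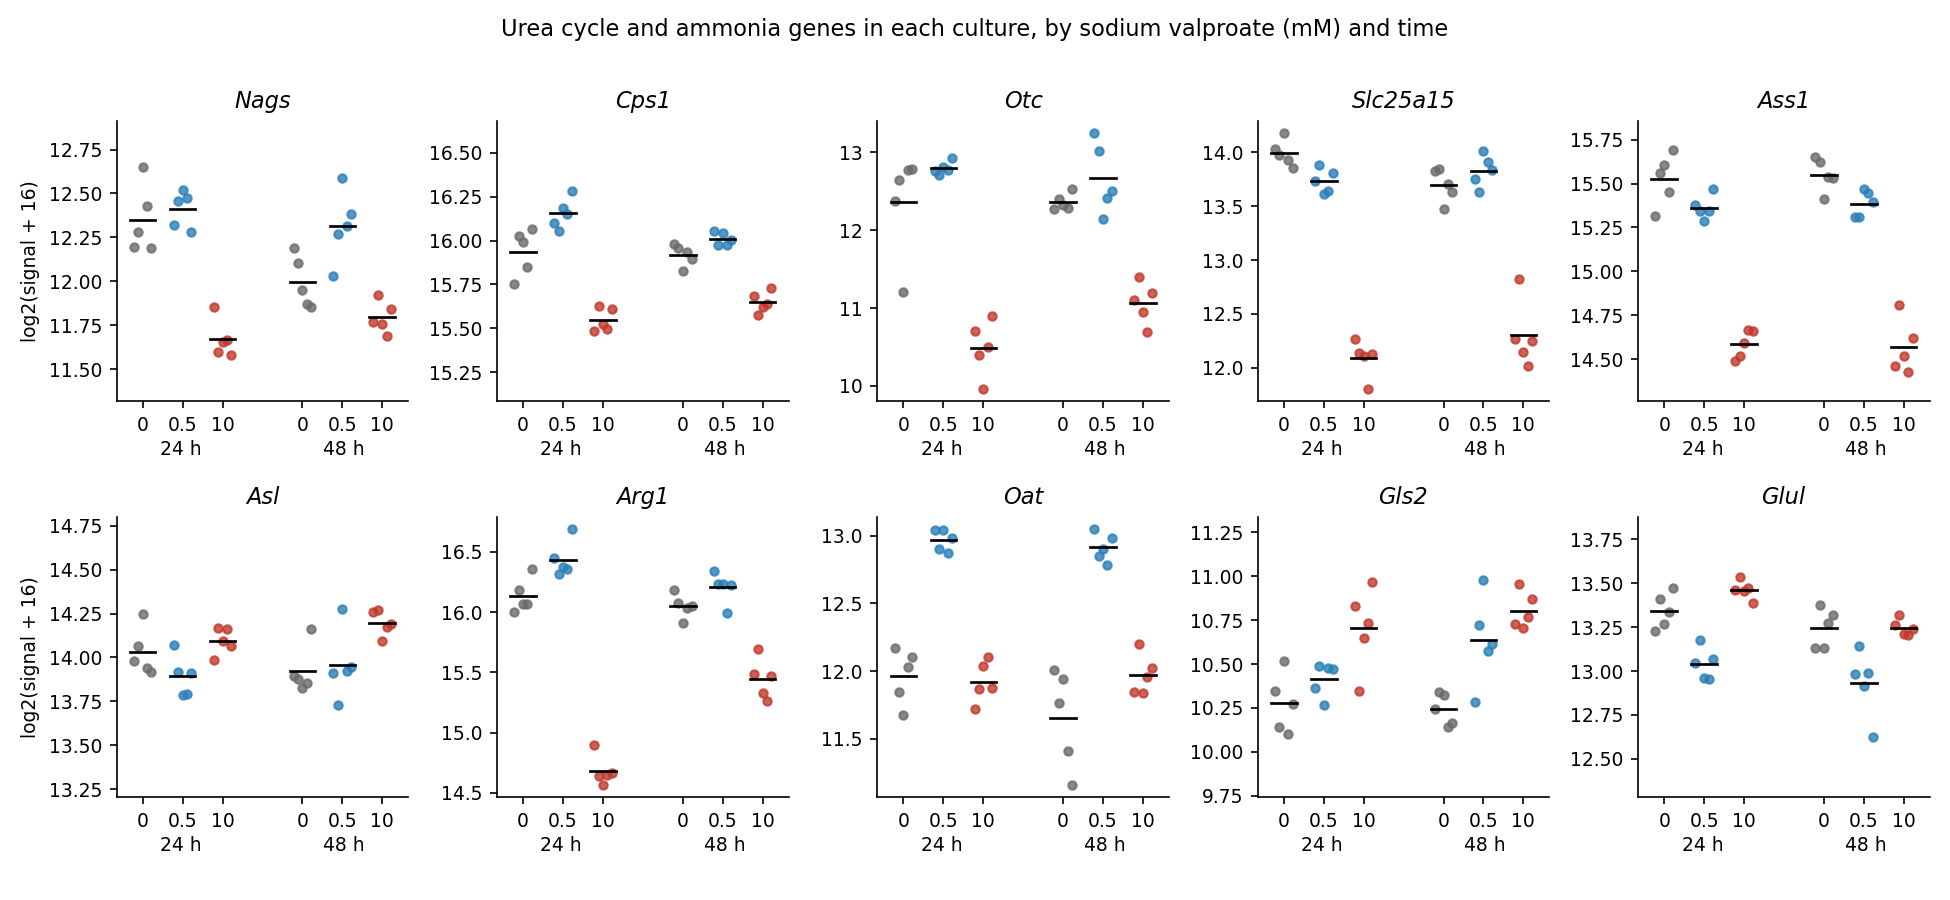
Each point is 1 culture's log2(signal + 16) for the brightest probeset of a gene, with dose in mM on the horizontal axis (0 is water), 24 h on the left and 48 h on the right of each panel, and a black line at the mean of 5. At 10 mM, Cps1, Otc, Slc25a15, Ass1 and Arg1 lie below every water culture at both times, and at 0.5 mM Oat lies above every water culture.

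The mitochondrial steps are given first. Nags (chr10:87598516-87602650 in the rat build GRCr8) makes N-acetylglutamate, without which Cps1 is inactive. Its signals at 24 h were 3691, 3077, 3213, 3233 and 3042 at 10 mM, against 4671, 4959, 6425, 5504 and 4649 in water. The highest 10 mM culture stayed below the lowest water culture, and the log2 change was -0.68 ± 0.09 (SE, adjusted p = 2.35e-07). At 48 h the signals were 3466, 3868, 3442, 3280 and 3655 at 10 mM, against 4653, 4393, 3947, 3729 and 3684 in water. The ranges overlapped, and the change of -0.20 ± 0.09 was not called (adjusted p = 0.0856). It was called lower in 6 of 17 alternatives: quantile normalization (-0.25, adjusted p = 0.0275), the compared groups alone (adjusted p = 0.0439), array weights (adjusted p = 0.0210), the actin ratio as a covariate (-0.24, adjusted p = 0.0109), and without the 3 or the 5 arrays of highest actin ratio (adjusted p = 0.0360 and 0.0314).

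Cps1 (chr9:76063863-76186739) makes carbamoyl phosphate from ammonia and bicarbonate, the rate-limiting entry to the cycle. Its brighter probeset read 45802, 50531, 47112, 46219 and 49992 at 10 mM after 24 h, against 55211, 66818, 65097, 58907 and 68688 in water. After 48 h it read 52594, 48874, 50418, 50988 and 54276 at 10 mM, against 64626, 63524, 58110, 62698 and 60842 in water. The groups were apart at both times, with changes of -0.39 ± 0.05 (adjusted p = 2.25e-07) and -0.27 ± 0.05 (adjusted p = 9.77e-05). The dimmer probeset, 1370151_at, gave larger changes of -1.06 ± 0.13 at 24 h and -0.55 ± 0.13 at 48 h. The brighter one has a mean higher than 99.8% of all probesets, and its 48 h call was lost under quantile normalization (-0.10, adjusted p = 0.0602) and with arrays centred on ribosomal protein genes (-0.09, adjusted p = 0.214).

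Otc (chrX:15126358-15202473) joins carbamoyl phosphate to ornithine to give citrulline. Its signals at 24 h were 1659, 1330, 984, 1428 and 1892 at 10 mM, against 5316, 6407, 2345, 6988 and 7026 in water. The water value of 2345 came from the array with the actin ratio of 2.76, and even that value was above every 10 mM culture. The log2 change was -1.87 ± 0.22, a 3.64-fold lower level (adjusted p = 9.76e-09), and -2.15 without the arrays of high actin ratio. At 48 h the signals were 2194, 2678, 1971, 1644 and 2325 at 10 mM, against 4917, 5377, 5096, 4990 and 5912 in water. The groups were apart again, with a change of -1.29 ± 0.22 (adjusted p = 9.09e-06).

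Slc25a15 (chr16:76334037-76357325) encodes the exchanger that brings ornithine into the mitochondrion and citrulline out. Its estimated fall lay within 1 standard error of that of Otc at both times, and without the 3 arrays of high actin ratio it was -1.86 at 24 h, where that of Otc was -2.15. At 24 h its signals were 4909, 4483, 4406, 3570 and 4464 at 10 mM, against 16754, 16043, 18484, 15597 and 14765 in water. At 48 h they were 4929, 7245, 4520, 4126 and 4839 at 10 mM, against 14540, 14713, 11364, 13300 and 12690 in water. The changes were -1.90 ± 0.11 (3.74-fold lower, adjusted p = 1.25e-15) and -1.40 ± 0.11 (2.63-fold lower, adjusted p = 2.78e-12). All 5 tested probesets of the gene fell, with changes between -1.98 and -1.29 at 24 h and between -1.51 and -1.13 at 48 h, where 20.2% and 17.9% of all probesets fell.

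The cytosolic steps diverged. Ass1 (chr3:35144765-35194632), which condenses citrulline with aspartate, read 22967, 23405, 24637, 25997 and 25887 at 10 mM after 24 h, against 40769, 48272, 49907, 44809 and 52897 in water. After 48 h it read 22560, 28669, 23442, 22016 and 25205 at 10 mM, against 51370, 50476, 43565, 47614 and 47350 in water. Its fall was about the same size at both times, -0.94 ± 0.07 (adjusted p = 3.17e-13) and -0.98 ± 0.07 (adjusted p = 2.36e-13), and the test of the difference between the times gave -0.04 ± 0.10 (adjusted p = 0.844).

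Arg1 (chr1:22295093-22307720) splits arginine into urea and ornithine. At 24 h its signals were 30532, 25588, 24285, 25609 and 26007 at 10 mM, against 65723, 74572, 68683, 68594 and 83977 in water. At 48 h they were 45907, 53080, 41072, 39307 and 45316 at 10 mM, against 74213, 68996, 61511, 66965 and 67793 in water. All 10 mM cultures were below all water cultures, with changes of -1.45 ± 0.08 (2.74-fold lower, adjusted p = 1.07e-15) and -0.60 ± 0.08 (1.52-fold lower, adjusted p = 3.04e-07).

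Asl (chr12:32295779-32313257), which releases arginine and fumarate from argininosuccinate, had no fall called. Its brighter probeset, 1367754_s_at, carries an accession that the RefSeq gene table assigns to Hnrnpab, so its signal may not be that of Asl alone. The other, 1368916_at, carries an accession of Asl and read 14326, 16086, 15476, 16466 and 15770 at 10 mM after 24 h, against 12823, 13188, 17749, 12920 and 13094 in water. After 48 h it read 16766, 16177, 16603, 16104 and 16486 at 10 mM, against 12227, 12711, 13105, 12349 and 13468 in water. The 48 h groups were apart and the change was 0.36 ± 0.08 (adjusted p = 0.000332). At 24 h the 10 mM cultures were above 4 of the 5 water cultures, the exception being the array of high actin ratio, and the change of 0.17 ± 0.08 was not called (adjusted p = 0.0721). The brighter probeset gave 0.06 ± 0.08 at 24 h (adjusted p = 0.548) and 0.27 ± 0.08 at 48 h (adjusted p = 0.00541).

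None of the 3 genes outside the cycle was called lower by limma at 10 mM. Gls2 (chr7:1201757-1218014), the liver-type glutaminase, read 1808, 1286, 1592, 1686 and 1989 at 10 mM after 24 h, against 1284, 1114, 1451, 1085 and 1221 in water. After 48 h it read 1677, 1972, 1654, 1725 and 1855 at 10 mM, against 1198, 1279, 1267, 1112 and 1130 in water. The ranges overlapped by 1 culture at 24 h and were apart at 48 h, with rises of 0.43 ± 0.11 (adjusted p = 0.00153) and 0.56 ± 0.11 (adjusted p = 9.07e-05). Glul (chr13:68519500-68585554), glutamine synthetase, had log2 changes on its brightest probeset of 0.12 ± 0.07 (adjusted p = 0.168) and 0.00 ± 0.07 (adjusted p = 0.992), with 95% intervals of -0.02 to 0.27 and -0.14 to 0.15. Its cultures read 11271, 11876, 11238, 11356 and 10719 at 10 mM after 24 h, against 9578, 10872, 9838, 10350 and 11345 in water, and after 48 h 9830, 10196, 9475, 9423 and 9651 at 10 mM, against 8941, 10625, 8955, 9887 and 10227 in water, with overlap at both times. Its 24 h change was called under quantile normalization (0.23, adjusted p = 0.00315) and with ribosomal centring (0.22, adjusted p = 0.00938), and that setting also called 48 h (0.18, adjusted p = 0.0321). The other probesets of Glul differed at 24 h, where limma called 1367633_at higher (0.38 ± 0.14, adjusted p = 0.0207). Its lowest water value there, 2697, came from the array with the actin ratio of 2.76, and at 48 h it had -0.02 ± 0.14. Probeset 1367632_at had -0.05 ± 0.09 at both times and no call. Oat (chr1:196777973-196797754), which passes the amino group of ornithine to form glutamate, had -0.04 ± 0.12 at 24 h (adjusted p = 0.798). At 48 h it was higher by 0.32 ± 0.12 (adjusted p = 0.0307), a call lost when any of 4 single arrays was left out: replicates 2 (0.26) and 5 (0.30) of 10 mM and replicates 4 (0.25) and 5 (0.19) of water.

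The promoters of 3 genes that fell at 10 mM at both times, and of Oat, which followed another pattern, are shown for comparison. Each is the stretch of 250 bases before the annotated start in RefSeq (GRCr8), read 5′ to 3′ on the strand of the gene. Capitals mark matches, on either strand, to any of 6 motifs. TATAAA is the TATA box. TGACGT is the core of the cAMP response element. CAAAGTC is an element bound by HNF4, a hepatocyte transcription factor. TTGCGCA is an element of the C/EBP family of transcription factors. The CCAAT box is searched by its own letters, and the GC box as GGGCGG.
Cps1, chr9:76063613-76063862, plus strand: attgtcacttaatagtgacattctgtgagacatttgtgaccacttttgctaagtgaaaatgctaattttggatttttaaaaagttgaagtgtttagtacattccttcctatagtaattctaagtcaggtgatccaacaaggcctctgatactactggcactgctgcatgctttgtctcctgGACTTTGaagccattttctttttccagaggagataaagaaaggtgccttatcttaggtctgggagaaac
Otc, chrX:15202474-15202723, minus strand: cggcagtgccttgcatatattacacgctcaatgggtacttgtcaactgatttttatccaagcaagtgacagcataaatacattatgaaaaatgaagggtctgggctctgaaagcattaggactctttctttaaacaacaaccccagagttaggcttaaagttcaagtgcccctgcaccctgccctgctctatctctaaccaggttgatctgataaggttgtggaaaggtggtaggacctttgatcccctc
Ass1, chr3:35149480-35149729, plus strand: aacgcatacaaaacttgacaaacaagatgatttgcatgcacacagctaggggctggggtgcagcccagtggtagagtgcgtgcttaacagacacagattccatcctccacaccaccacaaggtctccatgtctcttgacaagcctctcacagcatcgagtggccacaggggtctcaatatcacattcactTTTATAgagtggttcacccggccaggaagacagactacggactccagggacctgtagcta
Oat, chr1:196797755-196798004, minus strand: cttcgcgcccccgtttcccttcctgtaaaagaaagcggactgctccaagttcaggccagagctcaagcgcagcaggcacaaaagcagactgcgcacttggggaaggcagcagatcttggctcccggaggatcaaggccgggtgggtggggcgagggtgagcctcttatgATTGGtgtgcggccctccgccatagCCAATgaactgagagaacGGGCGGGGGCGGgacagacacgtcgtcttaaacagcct
Cps1 held 1 HNF4 element, as GACTTTG at base -69 from the start, a motif found in 3.9% of 33469 promoter windows. Ass1 held 1 match to the TATA box letters, as TTTATA at base -60 on the reverse strand, found in 12.9% of windows. Otc held no exact match to any of the 6. Only exact letters were searched, so sites of the same factors with other letters were not counted. Oat held 2 CCAAT boxes and 2 adjacent GC boxes, motifs found in 34.0% (CCAAT) and 30.5% (GC box) of windows. The GC share was 38.0% in Cps1, 44.4% in Otc, 51.2% in Ass1 and 60.8% in Oat. The Ass1 window precedes a transcript start that lies inside the gene's annotated span. The C/EBP element was found in 1.6% and the cAMP element in 6.9% of windows. Of the 10 genes, 9 had a promoter in the table.

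At 0.5 mM the pattern was another one, with Oat as its largest change. At 24 h, 3 of the 10 genes rose (Oat, Arg1 and Cps1) and 1 fell (Glul), against 12.7% of all genes that rose and 16.1% that fell. At 48 h, 3 rose (Oat, Gls2 and Nags) and 1 fell (Glul), against 11.9% and 14.1% of all genes. The medians of the 10 genes were 0.10 at 24 h and 0.14 at 48 h, and those of all genes 0.02 and -0.01. These comparisons share their water cultures with those at 10 mM. The hepatocyte marker sums were 476281 to 585696 at 0.5 mM and 416723 to 522227 in water at 24 h, and 476720 to 512358 at 0.5 mM and 413835 to 470837 in water at 48 h, where the ranges were apart. Few single markers were called, to be read against the shares of all genes above. At 24 h, 1 of 7 hepatocyte markers (Hp, 0.20), 1 of 2 biliary (Epcam, 0.20) and 1 of 3 lymphocyte markers (Cd4, 0.43) rose. At 48 h, 1 of 7 hepatocyte markers (Apob, 0.63) and 1 of 4 endothelial markers (Lyve1, 0.68) rose, and 1 of 5 macrophage markers (C1qb, -1.37) fell. No other tested marker was called by limma, and the part of markers in the results was not tested.

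Oat signals at 24 h were 8426, 7630, 8435, 7493 and 8070 at 0.5 mM, against 4584, 3670, 3247, 4157 and 4396 in water. At 48 h they were 8459, 7384, 7634, 7043 and 8074 at 0.5 mM, against 4111, 3451, 3918, 2700 and 2271 in water. Every 0.5 mM culture was above every water culture, and the changes were 1.00 ± 0.12 (2.01-fold, adjusted p = 1.67e-07) and 1.26 ± 0.12 (2.39-fold, adjusted p = 2.65e-09). At 10 mM Oat was lower than at 0.5 mM, with signals of 3361, 3717, 4192, 4384 and 3741 at 24 h and 3657, 4685, 3644, 3956 and 4145 at 48 h. That difference was -1.05 ± 0.12 at 24 h (adjusted p = 5.19e-09) and -0.94 ± 0.12 at 48 h (adjusted p = 5.13e-08).

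Cps1 and Arg1 were the 2 genes called higher at 0.5 mM and lower at 10 mM at 24 h, a combination that 363 genes, or 3.13% of all tested, also had. At 0.5 mM Arg1 read 89469, 81437, 85046, 83770 and 105533, against 65723, 74572, 68683, 68594 and 83977 in water, an overlap by 1 water culture. Its change was 0.30 ± 0.08 (adjusted p = 0.00746). Cps1 read 70143, 67918, 74633, 72778 and 79772 at 0.5 mM, against 55211, 66818, 65097, 58907 and 68688 in water, an overlap by 1 culture of each group, with a change of 0.22 ± 0.05 (adjusted p = 0.00308). Both are among the brightest probesets of the array, and quantile normalization took both calls away (0.10 with adjusted p = 0.277 for Arg1 and 0.05 with adjusted p = 0.469 for Cps1). At 48 h neither was called, with 0.16 ± 0.08 for Arg1 and 0.09 ± 0.05 for Cps1.

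Glul was lower at 0.5 mM. Its brightest probeset read 8429, 9252, 7953, 7923 and 8585 at 0.5 mM after 24 h, against 9578, 10872, 9838, 10350 and 11345 in water. After 48 h it read 8095, 9034, 7708, 8106 and 6295 at 0.5 mM, against 8941, 10625, 8955, 9887 and 10227 in water. The 24 h groups were apart and the 48 h groups overlapped by 1 culture, with changes of -0.30 ± 0.07 (adjusted p = 0.00228) and -0.32 ± 0.07 (adjusted p = 0.00139). The other probesets of Glul differed from it and from each other. 1367632_at gave -0.38 ± 0.09 at 24 h and -0.08 ± 0.09 at 48 h, and 1367633_at gave 0.01 ± 0.14 and -0.77 ± 0.14. The 48 h call was lost with ribosomal centring (-0.14, adjusted p = 0.140) and without the 5 arrays of highest actin ratio (-0.18, adjusted p = 0.129).

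Nags and Gls2 rose at 0.5 mM at 48 h, by 0.32 ± 0.09 (adjusted p = 0.0109) and 0.39 ± 0.11 (adjusted p = 0.00943). Nags read 4167, 4917, 6143, 5076 and 5328 at 0.5 mM, against 4653, 4393, 3947, 3729 and 3684 in water. Gls2 read 1232, 1671, 1999, 1510 and 1553 at 0.5 mM, against 1198, 1279, 1267, 1112 and 1130 in water. The highest value of both genes came from the array with an actin ratio of 2.77, and both calls were lost without the arrays of high ratio, where Nags had 0.23 (adjusted p = 0.0741) and Gls2 0.30 (adjusted p = 0.0741). Leaving out that 1 array, replicate 3, also ended the Nags call (0.25, adjusted p = 0.0509).

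Otc went the other way with the same arrays. At 48 h it read 9692, 8287, 4511, 5450 and 5776 at 0.5 mM, against 4917, 5377, 5096, 4990 and 5912 in water. The 4511 and 5450 came from the arrays with ratios of 2.77 and 2.23. With all arrays the change was 0.30 ± 0.22 and not called (adjusted p = 0.353). It was called at 0.56 without the 3 arrays (adjusted p = 0.0135), at 0.77 without the 5 highest (adjusted p = 0.00243) and at 0.79 with the ratio as a covariate (adjusted p = 0.000175). At 24 h Otc had 0.44 ± 0.22 at 0.5 mM (adjusted p = 0.138), and 0.15 without the 3 arrays.

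Not all probesets of a gene followed the actin ratio alike. In each of the 3 arrays, Otc, 1397647_at of Slc25a15, 1367633_at of Glul and 1370151_at of Cps1 were below every culture of their group with a ratio under 2. Against the mean of those cultures, the largest log2 differences were -1.44, -1.91, -0.91 and -0.83, in that order. In the same arrays, 1374800_at of Slc25a15 and 1367632_at of Glul were above every such culture, by 0.17 to 0.28 and by 0.13 to 0.29 over the mean. The part of probe position in these differences was not tested. The brighter probeset of Cps1 and the brightest of Glul were within 0.07 and 0.10 of that mean. At 0.5 mM after 48 h, 1397647_at had a change of -1.05 ± 0.29 (adjusted p = 0.00796; 11.9% of all probesets fell), while the other 4 tested probesets of Slc25a15 had -0.34 to 0.13 and no call.

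**Figure D2:**
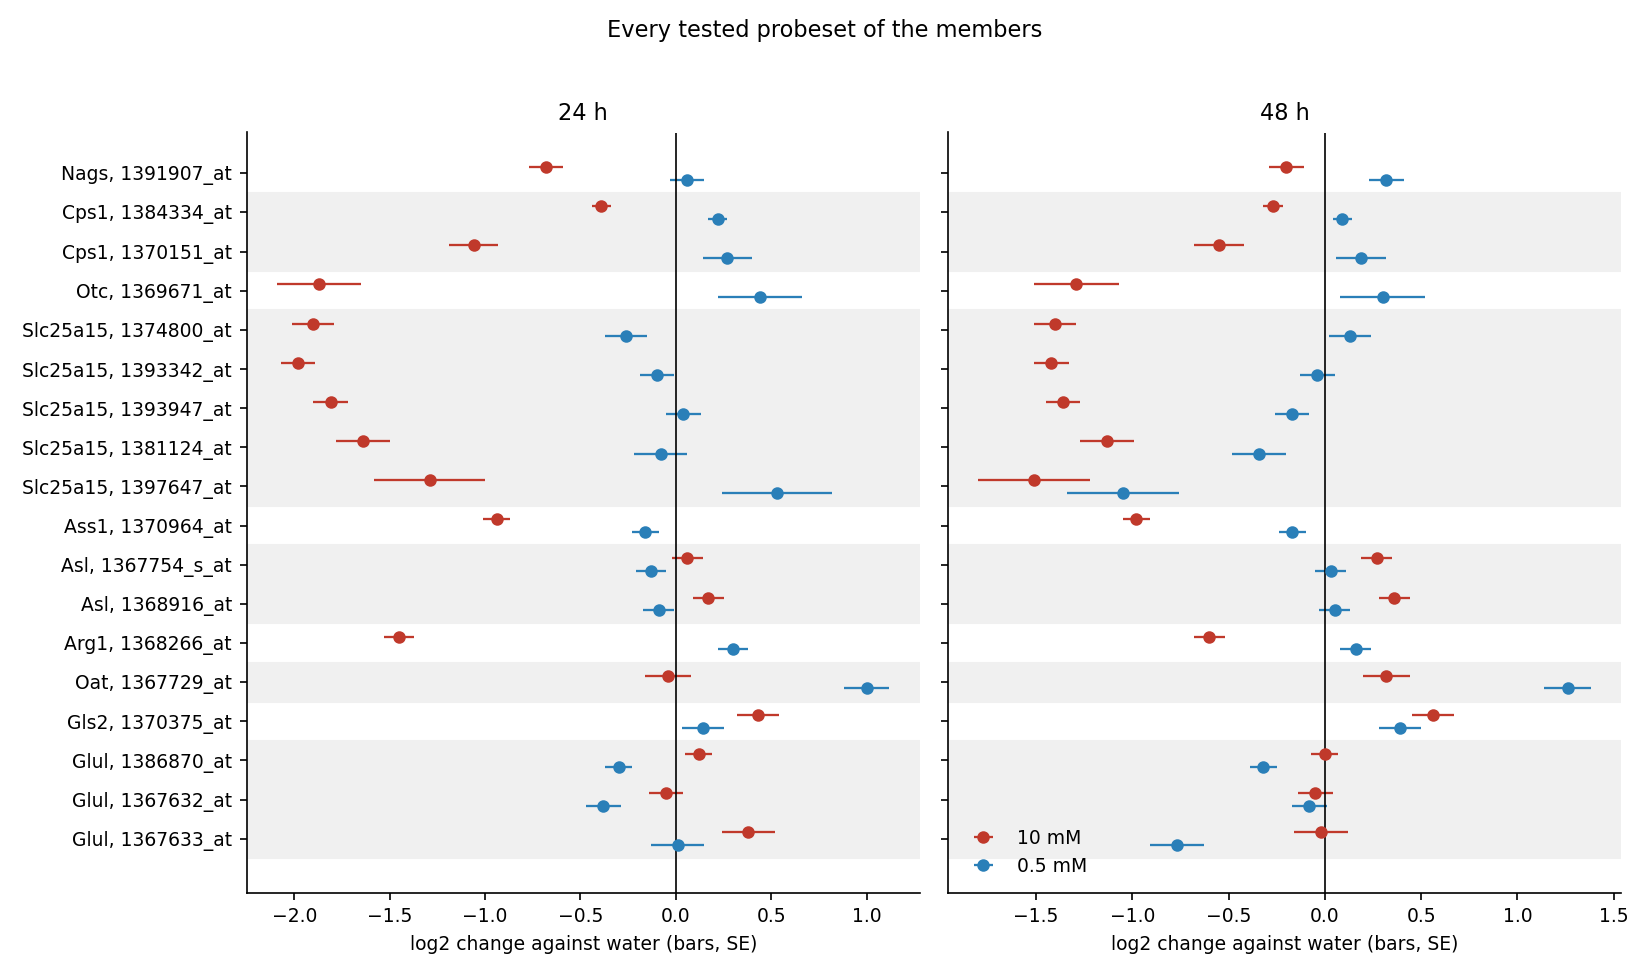
Log2 change against water, with its standard error, of each of the 18 tested probesets at 10 mM and 0.5 mM, 24 h on the left and 48 h on the right. The 5 probesets of Slc25a15 all fall at 10 mM, whereas the 3 of Glul disagree at 0.5 mM.

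On their brightest probesets, Ass1, Asl and Slc25a15 had no call at 0.5 mM. Ass1 had -0.16 ± 0.07 at 24 h (adjusted p = 0.0802) and -0.17 ± 0.07 at 48 h (adjusted p = 0.0770), values that were called under quantile normalization (-0.31 and -0.20). Slc25a15 had -0.26 ± 0.11 (adjusted p = 0.0789) and 0.13 ± 0.11 (adjusted p = 0.435), and the brighter probeset of Asl -0.13 ± 0.08 (adjusted p = 0.219) and 0.03 ± 0.08 (adjusted p = 0.818). The 95% intervals of these 6 changes lay within -0.48 and 0.35.

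**Figure D3:**
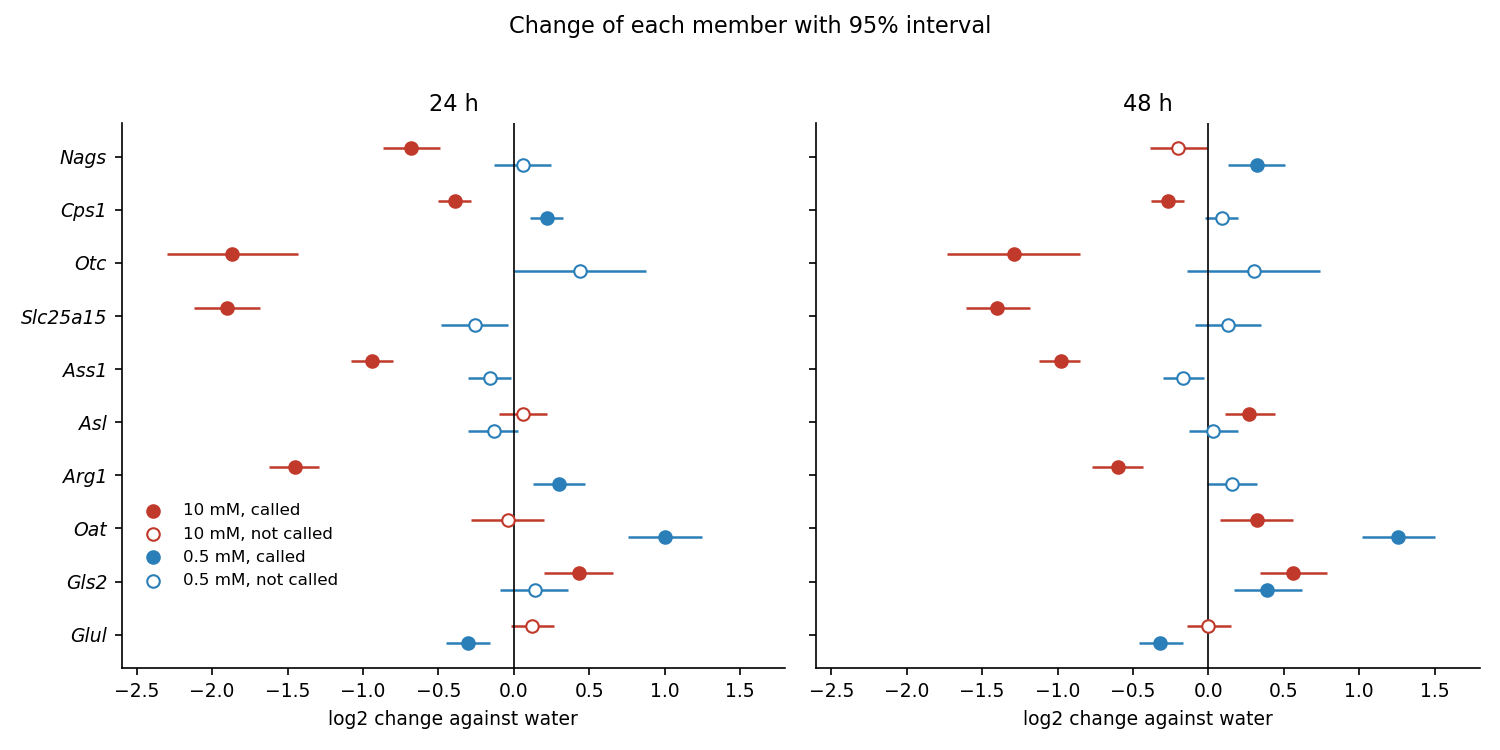
Log2 change of each gene against water with its 95% interval, at 10 mM and 0.5 mM, 24 h on the left and 48 h on the right; filled points passed an adjusted p of 0.05. At 10 mM Otc and Slc25a15 lie farthest to the left, and at 0.5 mM Oat lies farthest to the right.

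Set directly against 0.5 mM, the 10 mM cultures had 7 genes called lower at each time (Cps1, Otc, Ass1, Arg1, Nags, Slc25a15 and Oat), against 26.4% of all genes at 24 h and 23.8% at 48 h. At 24 h 3 were higher (Asl, Glul and Gls2) and at 48 h 2 (Asl and Glul), against 32.9% and 30.0% of all genes. None of the 7 lower genes overlapped between the doses, and the share of all genes without overlap is not given here. Otc differed most, by -2.30 ± 0.22 at 24 h (4.94-fold, adjusted p = 1.05e-10), followed by Arg1 at -1.75 ± 0.08 (adjusted p = 1.41e-17). On the RefSeq-matched probeset Asl was higher by 0.27 ± 0.08 and 0.32 ± 0.08. The 48 h call of Asl on the brighter probeset (0.24 ± 0.08) was lost without replicate 2 of 0.5 mM (0.18). Glul was higher at 10 mM by 0.42 ± 0.07 at 24 h (adjusted p = 7.26e-06) and by 0.32 ± 0.07 at 48 h (adjusted p = 0.000400). The 48 h call was lost without the 5 arrays of highest actin ratio (0.18, adjusted p = 0.0547), and at 48 h 1367632_at gave 0.04 (adjusted p = 0.752) and 1367633_at 0.75 (adjusted p = 2.65e-05). The calls of Asl and Gls2 at 24 h, at 0.20 ± 0.08 and 0.29 ± 0.11, were lost when single arrays were left out. For Asl these were replicates 2, 3 and 4 of 10 mM and 3, 4 and 5 of 0.5 mM (0.17 to 0.20), and for Gls2 replicates 1 and 5 of 10 mM and 1 and 3 of 0.5 mM (0.23 to 0.28).

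The time of harvest changed the size of some falls at 10 mM. The effect of 10 mM at 48 h minus that at 24 h was called for 3 genes, all toward a smaller fall: Arg1 (0.85 ± 0.12, adjusted p = 6.34e-06), Slc25a15 (0.51 ± 0.15, adjusted p = 0.0274) and Nags (0.48 ± 0.13, adjusted p = 0.0147), where 6.63% of all genes were called in this direction and 6.20% in the other. For Arg1 the 10 mM cultures themselves differed, with signals of 39307 to 53080 at 48 h and 24285 to 30532 at 24 h, a rise of 0.76 ± 0.08 (adjusted p = 3.34e-08). For Nags and Slc25a15 the 10 mM cultures had 0.12 ± 0.09 and 0.21 ± 0.11 (48 h minus 24 h, neither called), and the water cultures -0.35 ± 0.09 (adjusted p = 0.0146) and -0.30 ± 0.11 (adjusted p = 0.0885). On the 24 h water array with the actin ratio of 2.76, both genes were above every other water culture of that time, at 6425 and 18484. Of the other 4 tested probesets of Slc25a15, 3 were called higher between the times in 10 mM, 1393342_at by 0.45 (adjusted p = 0.000259), 1393947_at by 0.48 (adjusted p = 0.000207) and 1381124_at by 0.41 (adjusted p = 0.0418). In water the same 3 had -0.11, 0.03 and -0.10, none called by limma, with adjusted p between 0.490 and 0.871. The Slc25a15 call was lost without replicate 2 of 10 mM at 48 h (0.38), replicate 4 of 10 mM at 24 h (0.44), replicate 3 of water at 24 h (0.46) or replicate 3 of water at 48 h (0.45), and of its other tested probesets 2 were called (0.56 and 0.45; 5.80% of all probesets) and 2 were not (0.51 and -0.22). Otc had 0.57 ± 0.30 (adjusted p = 0.256), and without the water array of high actin ratio 0.86 (adjusted p = 0.0137).

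Fewer of these genes were called between the times within a dose. Between 48 h and 24 h, on the brightest probesets, Arg1 was higher and Glul lower (-0.22 ± 0.07, adjusted p = 0.0383) in 10 mM cultures, where 9.06% of all genes were higher and 7.64% lower. With the 3 further probesets of Slc25a15 above, 4 of the 18 probesets were higher, where 7.64% of all probesets were. The other probesets of Glul had -0.01 and 0.00. The Glul call was lost on leaving out any of 8 of the 10 arrays, with values of -0.22 to -0.20. In 0.5 mM cultures limma called none of the 10 on its brightest probeset, where 10.1% of all genes were higher and 6.74% lower. Of the other probesets there, 1367632_at of Glul was higher (0.28 ± 0.09, adjusted p = 0.0262) and 1397647_at of Slc25a15 lower (-0.96 ± 0.29, adjusted p = 0.0233), where 8.48% of all probesets were higher and 6.64% lower. In water cultures Nags was lower, where 5.11% of all genes were higher and 4.96% lower. The Nags call was lost without replicate 3 of water at 24 h (-0.28, adjusted p = 0.0625) and without replicate 5 of water at 48 h (-0.32, adjusted p = 0.0513). That replicate 3 was the array with the actin ratio of 2.76. Nags read 6425 on it, where the other water cultures at 24 h read 4649 to 5504. For the effect of 0.5 mM at 48 h minus that at 24 h, limma called no brightest probeset, with changes of -0.14 to 0.39, where 12% (1391 genes) and 9.69% of all genes were called higher and lower. Of the other probesets 2 were called lower, 1397647_at of Slc25a15 (-1.57 ± 0.41, adjusted p = 0.00792) and 1367633_at of Glul (-0.78 ± 0.19, adjusted p = 0.00612), where 9.66% of all probesets were. Both probesets were low on the arrays of high actin ratio.

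The enzymes and carriers that feed the cycle moved by larger amounts than the cycle's own genes in some cases. These lists were chosen with earlier results of these data known and are described by their counts, to be read against all genes: at 10 mM 25% of all genes fell and 31.1% rose at 24 h and 22.3% fell and 27.6% rose at 48 h, and at 0.5 mM 16.1% fell and 12.7% rose at 24 h and 14.1% fell and 11.9% rose at 48 h. Car5a, the mitochondrial carbonic anhydrase that supplies bicarbonate to Cps1, had a median signal of 827 (545 to 1203) at 10 mM and 5911 (5864 to 7351) in water at 24 h, and of 539 (388 to 2132) at 10 mM and 7822 (7052 to 8148) in water at 48 h. Its falls were -2.96 ± 0.25 (adjusted p = 8.20e-12) and -3.48 ± 0.25 (adjusted p = 3.93e-13). Car5b, the other mitochondrial form, rose by 1.53 ± 0.10 and 1.41 ± 0.10, with medians of 2862 at 10 mM and 987 in water at 24 h. Slc25a13, the carrier that exports aspartate for the Ass1 step, fell by 1.26 on the log2 scale at 24 h (adjusted p = 1.89e-13) and by 0.52 at 48 h (adjusted p = 1.38e-05), and at 0.5 mM rose by 0.31 and 0.65. Slc38a3, a glutamine transporter, fell at 10 mM at both times (-0.86 and -0.65) and at 0.5 mM at 24 h (-1.08 ± 0.20, adjusted p = 0.000131), with no call at 0.5 mM at 48 h (-0.15 ± 0.20). Of 18 tested transporters and suppliers of bicarbonate, 6 rose and 8 fell at 10 mM at 24 h, with a median of 0.09 where that of all genes was 0.07, and where 31.1% of all genes rose and 25% fell. At 48 h 7 rose and 8 fell, where 27.6% and 22.3% of all genes did.

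Enzymes that release ammonia or form glutamate were mostly lower at 10 mM. Of 18 tested, 13 fell and 3 rose at 24 h (median -0.65), where 25% and 31.1% of all genes did, and 11 fell and 1 rose at 48 h (median -0.53), where 22.3% and 27.6% did. At 24 h the largest falls were those of Ftcd (-2.93 ± 0.21) and Hal (-2.58 ± 0.14) of histidine breakdown and of Dpys (-2.46 ± 0.11) of pyrimidine breakdown. Glud1, glutamate dehydrogenase, changed by -0.17 ± 0.05 at 24 h (adjusted p = 0.0108) and had -0.04 ± 0.05 at 48 h (adjusted p = 0.641). At 0.5 mM the list had 5 higher and 3 lower at 24 h (median 0.15) and 10 higher and 3 lower at 48 h (median 0.34), against 12.7% higher and 16.1% lower of all genes at 24 h and 11.9% and 14.1% at 48 h. Gldc of glycine cleavage rose by 0.95 ± 0.15 and 1.34 ± 0.15 there, and Asns, asparagine synthetase, fell by 1.24 and 0.75 on the log2 scale (adjusted p = 1.73e-15 and 1.53e-10).

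Users of arginine and ornithine had shares of falls close to those of all genes at 24 h and of rises close to them at 48 h. Of 12 tested at 10 mM, 6 rose and 3 fell at 24 h (median 0.13), and 4 rose and 4 fell at 48 h (median 0.14), where 31.1% and 25% of all genes did at 24 h and 27.6% and 22.3% at 48 h. Arg2, the mitochondrial arginase, had a median signal of 1276 (1096 to 1519) at 10 mM and 243 (196 to 362) in water at 24 h, and of 1085 (941 to 1308) at 10 mM and 278 (185 to 428) in water at 48 h. It rose by 2.24 ± 0.19 (adjusted p = 2.28e-11) and 1.90 ± 0.19 (adjusted p = 1.36e-09), and had 0.02 ± 0.19 and -0.01 ± 0.19 at 0.5 mM. Gatm and Gamt, successive enzymes of creatine synthesis, moved apart at 10 mM: Gatm rose by 2.05 ± 0.20 and 1.83 ± 0.20, and Gamt fell, by -1.20 ± 0.10 and -1.76 ± 0.10. At 0.5 mM Srm and Odc1 of polyamine synthesis fell at both times, Srm by -1.01 ± 0.09 and -1.07 ± 0.09 and Odc1 by -0.48 ± 0.06 and -0.57 ± 0.06.

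Of 18 tested regulators of urea cycle genes, 9 fell and 5 rose at 10 mM at 24 h (median -0.21), and 5 fell and 5 rose at 48 h (median -0.16). Against the shares of all genes, 25% and 31.1% at 24 h and 22.3% and 27.6% at 48 h, the rises at both times and the falls at 48 h lay near the background. Foxa1, a forkhead factor of hepatocytes, fell by -2.23 ± 0.31 and -2.26 ± 0.31, and Gcgr, the glucagon receptor, by -1.93 ± 0.16 and -1.58 ± 0.16. Cebpa, a hepatocyte transcription factor, fell by -0.65 ± 0.08 and -0.31 ± 0.08. Hnf4a fell at 24 h at both doses, by -0.79 ± 0.10 at 10 mM and -0.65 ± 0.10 at 0.5 mM. At 48 h it rose at both, by 0.42 ± 0.10 (adjusted p = 0.000946) and 0.28 ± 0.10 (adjusted p = 0.0488). Sirt3, a mitochondrial deacetylase, rose at 0.5 mM by 0.86 ± 0.08 at 24 h and 0.62 ± 0.08 at 48 h.

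Other zoned and amino acid genes were read alongside, against 25% of all genes that fell and 31.1% that rose at 24 h, and 22.3% and 27.6% at 48 h. Of 10 tested periportal genes, the zone of the urea cycle, 9 fell and 1 rose at 10 mM at 24 h (median -0.90), and 7 fell and 1 rose at 48 h (median -0.40). The riser was Pck1 of gluconeogenesis, at 2.29 ± 0.20 and 3.30 ± 0.20, and the largest fall was that of Cyp2f4, at -2.92 ± 0.16 and -2.06 ± 0.16. Of 12 pericentral genes, the zone of Glul and Oat, 7 fell and 3 rose at 24 h (median -0.35), and 4 fell and 1 rose at 48 h (median -0.11). Axin2, a target of Wnt signalling, rose by 0.90 ± 0.17 and Cyp7a1 fell by -3.60 ± 0.20 at 24 h. Amino acid breakdown lists had more of their genes lower than the 6 of 10 here: 18 of 19 for methionine, choline, glycine and histidine (median -1.21) and 13 of 13 for phenylalanine, tyrosine and tryptophan (median -1.01) at 24 h, and 15 of 19 and 12 of 13 at 48 h. Hal and Gldc stand in several of these lists, and the differences between lists were not tested.

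**Figure D4:**
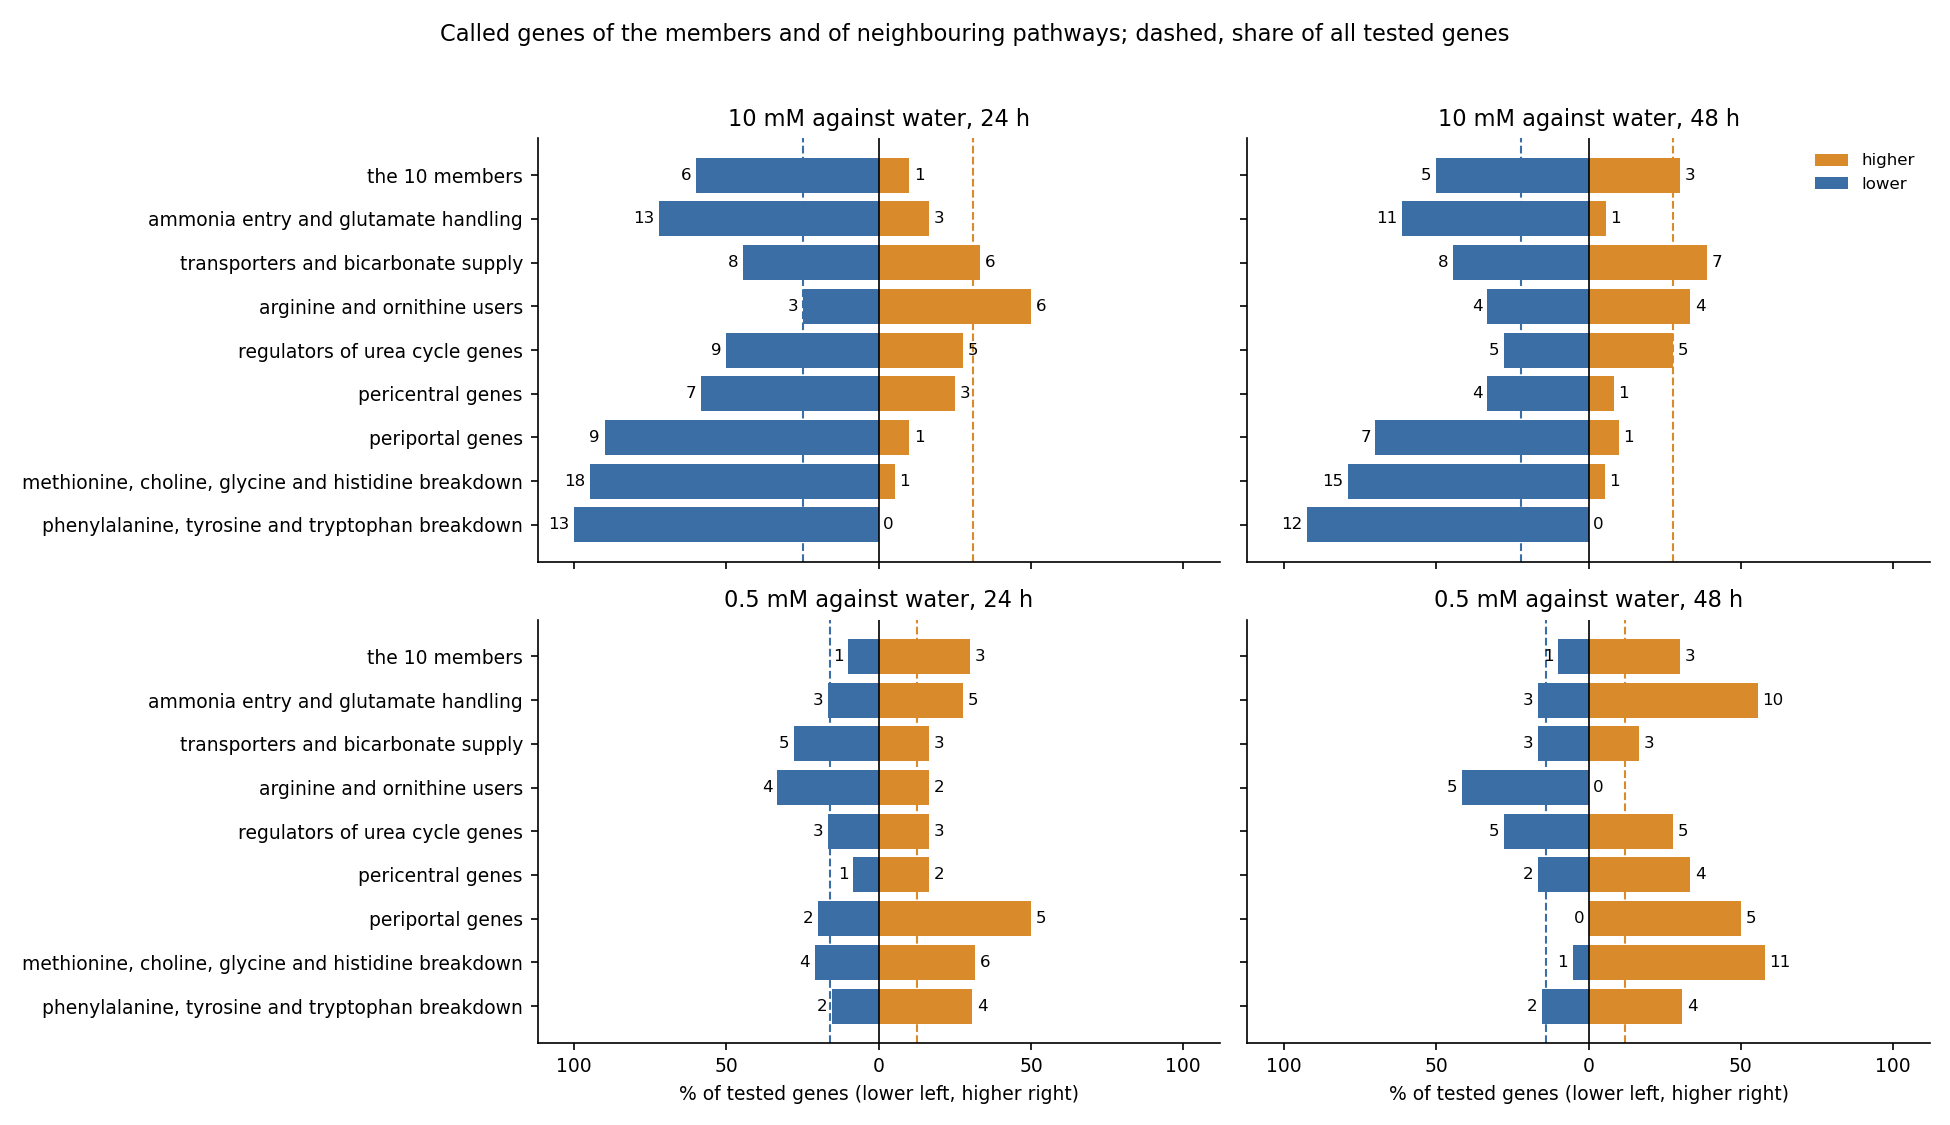
Share of tested genes called higher (right) or lower (left) in each list, with the number of genes at the end of each bar, at 10 mM (top row) and 0.5 mM (bottom row), 24 h on the left and 48 h on the right; dashed lines mark the share of all tested genes. At 10 mM the 2 amino acid breakdown lists reach farthest to the left, with 18 and 13 genes lower at 24 h.

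Over all 30 cultures, the genes whose log2 signal followed a member most closely were ranked by Pearson correlation among 11603 other genes. For Cps1 these were Ahcy (0.969), Cmbl (0.952) and Gpx1 (0.947), for Otc As3mt (0.966), Aadac (0.966) and Adi1 (0.962), and for Arg1 Uox (0.983), Sult1b1 (0.983) and Pecr (0.974). For Glul the closest were lower, Utp4 (0.881), Nxt1 (0.864) and Strap (0.861). The 30 points share 6 dose and time groups and the scaling of the arrays, so these values describe shared group differences as well as spread between cultures.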

How the data were processed

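The deposited table holds signal intensity on a linear scale, 1 value per probeset and array, which the authors made with MAS5, per the submitters' processing notes; the sources used here give neither version nor settings. The trimmed mean of each array was 1500.5 to 1500.7, a common scaling that was kept and cannot show a shift shared by most genes. In the platform annotation 20826 probesets had 1 symbol, 9780 had no symbol and 436 had several; 57 control probesets were left out. No probeset with several symbols was named.

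Intensity was turned into log2(signal + 16), a scale on which dim probesets change less than their signal. The 21729 probesets whose mean reached the 30th percentile of all means were tested, and the probeset of highest mean stands for each gene (11604 tested). Levels of different probesets are not compared. One linear model held the 6 groups, leaving 24 residual degrees of freedom, and was fitted in R 4.3.3 by the lmFit and eBayes functions of limma 3.58.1 with a mean-variance trend. There were 11 comparisons, two-sided, with Benjamini-Hochberg adjustment over all tested probesets of each. The fit was tested on simulated data of 21729 probesets with 200 changed at 10 mM and 24 h: 171 were called, being 47, 38, 38 and 48 of 50 at log2 changes of -2, -1, 1 and 2, with 6 calls among the 21529 unchanged. The simulated noise was normal and independent between probesets, and far fewer probesets changed than were called in the data. These rates therefore need not hold for the data. A first criterion of over 90% of the changed probesets called was not met; it was replaced, after that result, by at least 45 of 50 at each change of size 2. Replicates were numbered in accession order, so that a replicate number is also that of a run of 6 title numbers. The labels do not say whether the cultures of a run are paired, and the main model held no block. The highest correlation of any 2 arrays was 0.967, so none was a copy of another.

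The members, gene lists, tests and the rule for naming genes were chosen with earlier results of these data known. That rule named the 10 members, up to 3 genes per list and direction among called genes, and a few of direct relevance, 1 of which is not reported here. Alternatives were pseudocounts of 1 and 64, 2 other scalings (quantile; the median of 45 ribosomal protein probesets), other filters, a fit of the compared groups alone, no trend, array weights, the mean of a gene's probesets, a fold minimum of 2, a block for each run of 6 arrays, the actin ratio as a covariate, and leaving out single arrays or those with a ratio above 2. Added after seeing the data were the RefSeq-matched probeset of Asl, the dimmest tested probeset of each gene, and leaving out the 5 arrays of highest ratio. Python 3.11.15 and matplotlib 3.10.9 drew the figures.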

Additional observations from a re-analysis of the deposited data

Results flagged for a closer look

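Of 60 groups of 5 values of the 10 genes, 2 had a culture far from its 4 companions, and chance gives about 1 in 20. Otc in replicate 3 of water at 24 h was 2345, where the next value was 5316; that array had the actin ratio of 2.76. Asl in replicate 5 of water at 48 h was 18280 on the brighter probeset, where the next value was 15189; on the RefSeq-matched probeset the same array read 13468, in a group of 12227 to 13468.

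The effect of 10 mM differed between 48 h and 24 h in 3 genes by the interaction term in limma: Arg1 (0.85, adjusted p = 6.34e-06), Slc25a15 (0.51, adjusted p = 0.0274) and Nags (0.48, adjusted p = 0.0147), on the log2 scale. The 24 h fall was the larger one in each on the brightest probeset. The Slc25a15 call was lost in 5 alternatives besides the fold minimum and on leaving out any of 4 single arrays (lowest value 0.38), and 1397647_at of Slc25a15 had the larger fall at 48 h (-1.51 at 48 h and -1.29 at 24 h). On that probeset the water array with the actin ratio of 2.76 read 1306 at 24 h, where the other water arrays read 3755 to 6339. The -1.29 includes that array. The causes were not tested.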

How the results depend on the processing

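The counts of lower genes at 10 mM against water, 6 at 24 h and 5 at 48 h, stayed at 6 and at 5 whichever single array was left out; over the other alternatives without a fold minimum they were 6 and 4 to 6. Centring on ribosomal protein genes moved the median change of all genes against water (24 h and 48 h). At 10 mM it went from 0.07 and 0.03 to 0.16 and 0.21, and at 0.5 mM from 0.02 and -0.01 to -0.03 and 0.17. The causes of the changes below were not tested.

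Against water, the count of higher genes at 10 mM and 24 h became 2 under quantile normalization, ribosomal centring and the dimmest tested probeset. At 0.5 mM and 24 h the higher count became 1 under quantile normalization, and the lower count 2 under quantile normalization, ribosomal centring and the compared groups alone, and 0 with the dimmest probeset. At 0.5 mM and 48 h the higher count became 5 with ribosomal centring, and the lower count 0 with it and without the 5 arrays of highest actin ratio, and 2 under quantile normalization, the actin covariate and the dimmest probeset. Between the doses at 48 h, 1 gene was higher without those 5 arrays.

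Between 48 h and 24 h in 10 mM, the higher count became 2 with the compared groups alone, array weights, the run block, the actin covariate and without the 3 or the 5 arrays, and 3 with the mean of the probesets; the lower count became 0 with no filter, no trend, the mean of the probesets and the dimmest probeset. In 0.5 mM the lower count became 2 with the 50th percentile filter, and 1 with array weights, the run block and the dimmest probeset. In water it became 0 with the compared groups alone and the actin covariate, and 2 with array weights and without the 3 arrays. For the 0.5 mM effect at 48 h minus 24 h, the higher count became 3 with ribosomal centring and 1 with the compared groups alone, and the lower count 2 with the dimmest probeset.

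With a fold minimum of 2, the higher and lower counts against water were 0 and 3 at 10 mM and 24 h, 0 and 2 at 10 mM and 48 h, 1 and 0 at 0.5 mM and 24 h, and 1 and 0 at 0.5 mM and 48 h; between the doses 0 and 4 at 24 h and 0 and 2 at 48 h; between times 0 and 0 in 10 mM and a lower count of 0 in water; and 0 higher for the 10 mM interaction.

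Leaving out single arrays, the ranges were 1 to 3 higher between the doses at 24 h and 1 to 2 at 48 h; 1 to 2 lower at 0.5 mM against water at both times; 1 to 2 higher and 0 to 1 lower between times in 10 mM; 0 to 1 higher and 0 to 2 lower between times in 0.5 mM; 0 to 2 lower in water; and 0 to 1 higher for the 0.5 mM interaction.

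With the dimmest tested probeset, Glul at 0.5 mM and 24 h was 0.01, Slc25a15 at 0.5 mM and 48 h -1.05, at 48 h against 24 h in 0.5 mM -0.96, in the 10 mM interaction -0.22 and in the 0.5 mM interaction -1.57, each opposite in sign to the brightest probeset. These probesets, 1367633_at and 1397647_at, were low on all 3 arrays with an actin ratio above 2. Each of these values includes at least 1 of those arrays, and the part of RNA quality in them was not tested. The labels carry no replicate number that pairs cultures. The block for each run of 6 title numbers, each run holding 1 array of every group, was the one blocked fit, and it changed only the 2 counts between times given above, through calls of Otc in 10 mM (0.58, adjusted p = 0.0331) and Arg1 in 0.5 mM (-0.23, adjusted p = 0.0277).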
